A study of Mus musculus with 3 samples.

Results

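The sarcoplasmic reticulum is the calcium store of heart muscle cells, and 10 genes of its release and uptake machinery were examined in cardiac fibroblasts and in cells reprogrammed from them. The genes were chosen by symbol (Ryr2, Trdn, Asph, Casq2, Casq1, Jph2, Atp2a2, Pln, Sln and Slc8a1), and each of the 10 matched 1 row among the 54532 genes of the deposited tables. At each heartbeat calcium enters the cell, opens the ryanodine receptor Ryr2 in the reticulum membrane and leaves the store. The store is refilled by the pump SERCA2, encoded by Atp2a2, and the rest of the calcium is carried out of the cell by the exchanger encoded by Slc8a1. Calsequestrin holds calcium inside the store, triadin and junctin tie it to the receptor, and junctophilin 2 keeps the store close to the surface membrane, while phospholamban (Pln) and sarcolipin (Sln) restrain the pump.

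RNA was sequenced from 3 mouse libraries. Each condition had 1 library, so differences lack a replicate check and no p-value was computed. MICFs were cells of infarcted tissue, taken 5 days after myocardial infarction from 8-week-old mice carrying an mCherry reporter under the Myh6 promoter, which is active in cardiomyocytes. They were cultured for 4 weeks without virus and were not sorted for the reporter. The iCMs were MICFs that received lentiviruses with doxycycline-inducible factors and doxycycline at 1 µg/ml, and their mCherry-positive cells were sorted after 4 weeks, 5 sorted samples being mixed for each library. Whether the MICFs also received doxycycline is not given in the sources used here. The factors were Gata4, Mef2c, Tbx5 and Myocd with Sall4 for GMTMS, or with Mesp1 for GMTMM. Sall4 had 1190 counts in the GMTMS library and 1060 in that labelled GMTMM, with 0 in MICFs, and Mesp1 had 0 counts in each. The factors counted in the third library therefore go against its label, and it is called the library labelled GMTMM throughout.

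The libraries held 11861773, 10624118 and 11904484 counts in the order MICFs, GMTMS-iCMs and library labelled GMTMM. Of the cardiomyocyte marker genes (Actc1, Myh6, Tnnt2, Tnni3, Actn2, Ttn and Mybpc3), 2 of 7 were at 0 counts in MICFs and none in the other libraries, and their summed level was 1.61, 678 and 241 FPKM (the deposited count per kilobase of gene length, scaled by library size). The 6 fibroblast genes (Col1a1, Col1a2, Col3a1, Pdgfra, Tcf21 and Postn) summed to 1150, 165 and 2187 FPKM, and the 4 endothelial genes (Cdh5, Pecam1, Kdr and Tek) to 303, 9.52 and 228 FPKM. The 5 macrophage genes (Cd68, Adgre1, Csf1r, Itgam and Lyz2) summed to 7133, 13554 and 6382 FPKM, with none of the fibroblast, endothelial or macrophage genes at 0 in any library, so RNA of macrophage genes was abundant in the fibroblast library and in both sorted libraries. The 4 smooth muscle genes (Myh11, Cnn1, Smtn and Tagln) summed to 53.8, 92.1 and 87.2 FPKM, and the 7 skeletal muscle genes (Myod1, Myog, Myf5, Ckm, Tnnt3, Myh1 and Myh4) to 0.757, 1.44 and 2.78 FPKM with 5, 5 and 4 of them at 0. The part of these other cell types in the results was not tested. In bulk RNA, fewer cells of a type and less RNA per cell cannot be told apart.

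Sequences before the start site are shown for 3 genes that stand for the different outcomes below. Ryr2 went from 0 counts in MICFs to many in both transduced libraries, Casq2 was lower than in MICFs in one transduced library and higher in the other, and Pln stayed near 0 in each. Each window holds the 250 bases before the RefSeq start site on GRCm38.p6, read 5′ to 3′ on the strand of the gene. Capitals mark matches on either strand to the GATA motif (AGATAA or TGATAA), the T-box core AGGTGT, the MEF2 consensus or the CArG box. These motifs are named for the families of the delivered factors Gata4, Tbx5 and Mef2c and, for the CArG box, for the partner of Myocd.
Ryr2, chr13:12106946-12107195, minus strand: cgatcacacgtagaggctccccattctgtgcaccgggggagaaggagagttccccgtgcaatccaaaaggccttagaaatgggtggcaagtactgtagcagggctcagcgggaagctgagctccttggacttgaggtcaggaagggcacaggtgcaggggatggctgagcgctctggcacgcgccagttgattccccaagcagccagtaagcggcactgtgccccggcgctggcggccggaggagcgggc
Casq2, chr3:102086165-102086414, plus strand: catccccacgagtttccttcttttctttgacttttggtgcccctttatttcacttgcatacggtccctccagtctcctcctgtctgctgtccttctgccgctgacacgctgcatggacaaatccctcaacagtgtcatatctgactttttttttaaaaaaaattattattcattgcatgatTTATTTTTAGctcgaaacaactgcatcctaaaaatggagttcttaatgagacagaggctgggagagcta
Pln, chr10:53337436-53337685, plus strand: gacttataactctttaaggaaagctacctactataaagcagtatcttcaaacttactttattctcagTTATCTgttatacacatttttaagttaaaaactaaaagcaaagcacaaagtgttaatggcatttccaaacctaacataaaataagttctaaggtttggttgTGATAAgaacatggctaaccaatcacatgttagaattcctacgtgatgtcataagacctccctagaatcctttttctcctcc
The Ryr2 window held no match and had a GC content of 63.2%. Casq2 held 1 MEF2 match, beginning 69 bases before the start site, and Pln held 2 GATA matches, beginning 183 and 82 bases before it, in a window of 32.8% GC. Among 32851 RefSeq promoter windows of this length, 16.6% held the GATA motif, 11.8% the T-box core, 2.92% the MEF2 consensus and 1.47% the CArG box. The table had windows for 6 of the 10 genes. Of the other 3, Casq1 and Jph2 held no match and Slc8a1 held 2 GATA matches. The Slc8a1 window begins at base 81738388 of chromosome 17, outside the deposited gene model, which ends at base 81649607. Atp2a2, Sln, Trdn and Asph were not among the windows used here. A match describes letters in this window and is not a measured site.

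Among the 10 genes, near-zero counts were most frequent in MICFs. In MICFs 4 of the 10 genes had at most 3 counts (Ryr2, Trdn, Pln and Sln), against 1 of 10, Pln, in each transduced library. With a limit of 10 counts, Casq1 joined this group in MICFs (5 of 10 genes), Casq1 with Pln made 2 of 10 in GMTMS-iCMs, and Trdn, Pln and Sln made 3 of 10 in the library labelled GMTMM. Of all 54532 genes, MICFs had a count for 21178, GMTMS-iCMs for 20309 and the library labelled GMTMM for 21021. Genes without a count were thus common in every library. The shares of all genes at or below the limits of 3 and 10 counts were not computed, so these numbers describe the 10 genes only. The release channel and the pump each had at least 763 counts in both transduced libraries. Triadin and Casq1 had at most 37 there and the inhibitors of the pump at most 22.

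**Figure D1:**
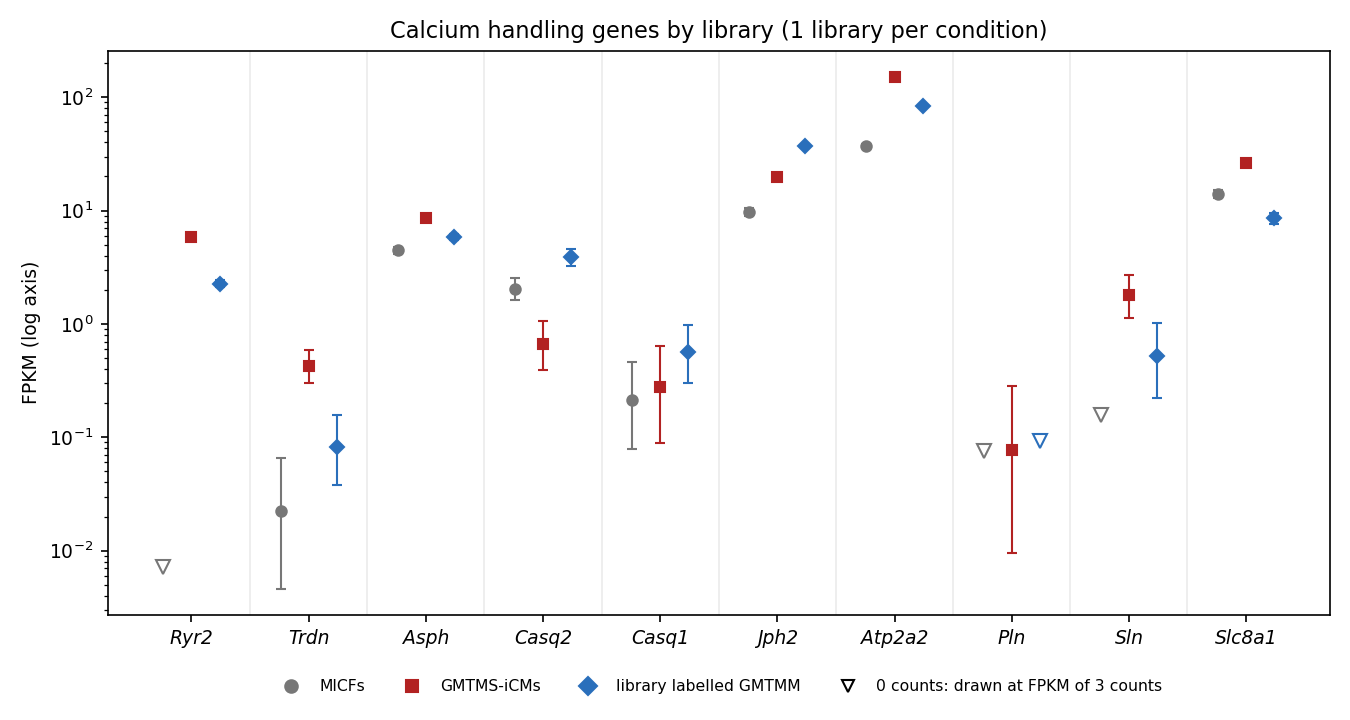
FPKM (log axis) of the 10 calcium handling genes in the 3 libraries, with exact Poisson 95% intervals of the count as bars; open triangles are genes with 0 counts, drawn at the FPKM of 3 counts. Ryr2 is at 0 counts in MICFs and at 5.87 FPKM in GMTMS-iCMs, Atp2a2 is the highest gene in every library, and Pln stays within 2 counts of 0.

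Ryr2 (ENSMUSG00000021313, chromosome 13 from 11553102 to 12106945 on GRCm38), the calcium release channel of the cardiac reticulum, had 0 counts in MICFs but 1570 in GMTMS-iCMs, with 763 in the library labelled GMTMM. Its level was 5.87 FPKM in GMTMS-iCMs (95% Poisson interval 5.58 to 6.17) and 2.27 FPKM in the library labelled GMTMM (2.11 to 2.44), while in MICFs 3 counts would have been 0.00724 FPKM. Both transduced libraries lay far above MICFs. Set against 3 counts in MICFs, the ratio was 811 in GMTMS-iCMs, while the library labelled GMTMM had 313. Counting error in the transduced libraries is left out of these ratios, so they are not lower bounds. GMTMS-iCMs held 2.59 times the FPKM of the library labelled GMTMM (2.37 to 2.83, Clopper-Pearson interval on the counts). The summed cardiomyocyte markers stood in a ratio of 2.81 between the same libraries. All intervals cover counting error only and not the spread between replicates. Reads copied by PCR are not independent molecules, so the intervals may be too narrow even for counting error.

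Other release channels were already present in MICFs. The IP3 receptors Itpr1, Itpr2 and Itpr3, release channels of most cell types, had 1482, 831 and 421 counts there, and together with the ryanodine receptors they summed to 12.8, 16.5 and 15.5 FPKM in the order MICFs, GMTMS-iCMs and library labelled GMTMM. The FPKM ratio of GMTMS-iCMs to MICFs was below 1 for each IP3 receptor, from 0.742 for Itpr2 (0.657 to 0.837) to 0.812 for Itpr1 (0.744 to 0.887). Ryr2 made 0%, 35.6% and 14.7% of these sums. In GMTMS-iCMs it was the highest of the 6 channels, and in the library labelled GMTMM Itpr1 was 3.07 times as high as Ryr2 (2.81 to 3.35). The skeletal receptor Ryr1 had 6, 105 and 38 counts in the order MICFs, GMTMS-iCMs and library labelled GMTMM. Its FPKM was 8.82% of that of Ryr2 in GMTMS-iCMs (7.17% to 10.7%) and 6.57% in the library labelled GMTMM (4.61% to 9.10%). Ryr3 had 3, 2 and 2 counts. The myogenic factors Myod1, Myog and Myf5, which define skeletal muscle, had 0 counts in each library.

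**Figure D2:**
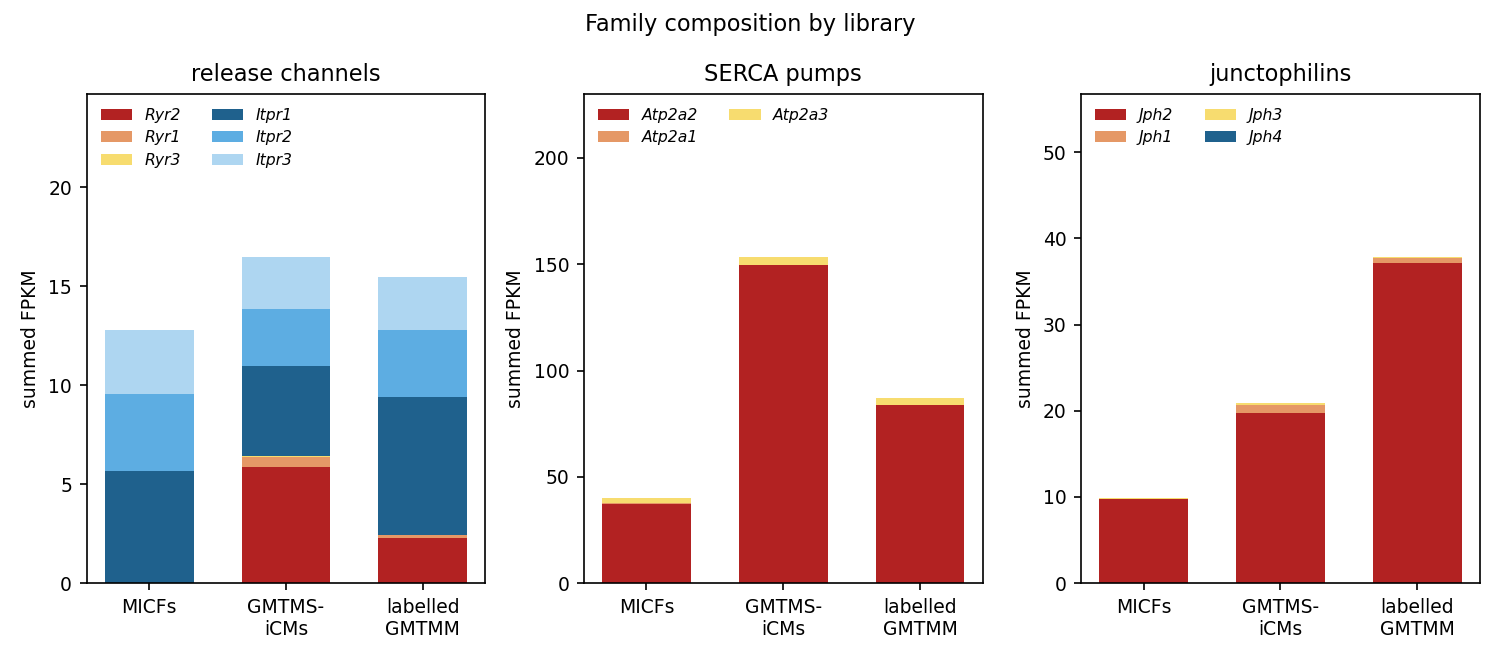
Stacked bars of FPKM from 0 for the release channels (ryanodine and IP3 receptors), the SERCA pumps and the junctophilins in the 3 libraries. Ryr2 takes 35.6% of the release channel sum in GMTMS-iCMs and none in MICFs, and Atp2a2 and Jph2 make over 90% of their families in every library.

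Trdn (ENSMUSG00000019787, chromosome 10 from 33080554 to 33476709) encodes triadin, which anchors calsequestrin at the release channel. MICFs, GMTMS-iCMs and library labelled GMTMM had 3, 37 and 9 counts of it, which is 0.0223, 0.426 and 0.0824 FPKM. GMTMS-iCMs were above both other libraries beyond counting error, with ratios of 19.1 to MICFs (6.05 to 96.9) and 5.17 to the library labelled GMTMM (2.45 to 12.2). For the library labelled GMTMM against MICFs the ratio of 3.70 had an interval that includes 1 (0.922 to 21.2). Per length, triadin stayed far below its partner, at 7.26% of the FPKM of Ryr2 in GMTMS-iCMs (5.09% to 10.0%) and 3.63% in the library labelled GMTMM (1.65% to 6.93%). Apart from Slc8a1, the lengths used for the genes examined are all their exon bases in the GENCODE M21 annotation, not those of the transcript made. Shares and orders between genes depend on these lengths, which the intervals do not cover.

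Casq2 (ENSMUSG00000027861, chromosome 3 from 102086415 to 102146514), the cardiac calsequestrin, took opposite sides of MICFs in the transduced libraries. From 80 counts in MICFs it went to 17 in GMTMS-iCMs but 124 in the library labelled GMTMM, or 2.03, 0.669 and 3.88 FPKM. MICFs held 3.04 times the FPKM of GMTMS-iCMs (1.78 to 5.47). The library labelled GMTMM held 1.91 times that of MICFs (1.43 to 2.56) and 5.80 times that of GMTMS-iCMs (3.48 to 10.3). As a result Casq2 stood at 11.4% of the FPKM of Ryr2 in GMTMS-iCMs (6.62% to 18.3%) and at 171% in the library labelled GMTMM (140% to 207%). The order of Casq2 across the libraries was also that of the summed fibroblast markers, at 1150, 165 and 2187 FPKM, and the part of these cells in the difference was not tested. Casq1 (ENSMUSG00000007122, chromosome 1 from 172209894 to 172219868), the skeletal calsequestrin, had 6, 5 and 13 counts in the order MICFs, GMTMS-iCMs and library labelled GMTMM. These counts cannot order the libraries, because the interval of each ratio includes 1 (GMTMS-iCMs to MICFs 0.312 to 5.08, library labelled GMTMM to MICFs 0.946 to 8.56, and GMTMS-iCMs to library labelled GMTMM 0.135 to 1.45).

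Asph (ENSMUSG00000028207, chromosome 4 from 9448069 to 9669344) encodes junctin, and also junctate and a hydroxylase that many cell types make, and counts per gene cannot separate these products. It had 1031, 1282 and 1091 counts in the order MICFs, GMTMS-iCMs and library labelled GMTMM, or 4.45, 8.57 and 5.80 FPKM. The FPKM ratio to MICFs was 1.93 in GMTMS-iCMs (1.77 to 2.09) and 1.30 in the library labelled GMTMM (1.20 to 1.42). Scaled by the library totals instead, these ratios were 1.39 (1.28 to 1.51) and 1.05 (0.967 to 1.15), so the second is within counting error on that scale. Of the exon bases of Asph, 14.7% overlap genes on the opposite strand, and both of those genes had 0 counts in each library. Because the assignment of reads over shared bases is not given, reads of Asph there may still not have been credited to it.

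Jph2 (ENSMUSG00000017817, chromosome 2 from 163336242 to 163397993), which bridges the reticulum and the surface membrane, had its highest level in the library labelled GMTMM. Counts of 598 in MICFs stood beside 781 in GMTMS-iCMs, with 1848 in the library labelled GMTMM, or 9.77, 19.8 and 37.2 FPKM. The ratio to MICFs was 2.02 in GMTMS-iCMs (1.82 to 2.25) and 3.81 in the library labelled GMTMM (3.47 to 4.18), and the library labelled GMTMM held 1.88 times the level of GMTMS-iCMs (1.73 to 2.05). Unlike Ryr2, Jph2 was thus counted in MICFs. Jph2 made 98.6%, 94.5% and 98.2% of the junctophilin FPKM. The skeletal junctophilin Jph1 had 3, 44 and 31 counts, while Jph3 had 6, 8 and 7 and Jph4 had 0, 1 and 2.

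Atp2a2 (ENSMUSG00000029467, chromosome 5 from 122453513 to 122502225), the pump that refills the store, was the most abundant of the 10 genes per length in each library. Its counts were 3275 in MICFs, with 8450 in GMTMS-iCMs against 5952 in the library labelled GMTMM, or 37.4, 150 and 83.8 FPKM. GMTMS-iCMs were highest and MICFs lowest, with a ratio to MICFs of 4.00 in GMTMS-iCMs (3.84 to 4.16) and 2.24 in the library labelled GMTMM (2.14 to 2.34). GMTMS-iCMs held 1.79 times the FPKM of the library labelled GMTMM (1.73 to 1.85). Atp2a2 gives rise to a muscle form and to a form found in most cells, which counts per gene do not separate. It made 93.9%, 97.5% and 96.0% of the SERCA FPKM. The pump Atp2a3 had 176, 184 and 204 counts and the skeletal pump Atp2a1 had 5, 5 and 7. Ryr2 stood at 3.92% of the FPKM of Atp2a2 in GMTMS-iCMs (3.72% to 4.14%) and at 2.71% in the library labelled GMTMM (2.51% to 2.92%). MICFs held 37.4 FPKM of Atp2a2 with 0 counts of Ryr2, and the part of other cell types in these shares was not tested.

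The inhibitors of the pump had low counts, Pln in each library and Sln least so in GMTMS-iCMs. Pln (ENSMUSG00000038583, chromosome 10 from 53337667 to 53345987), encoding phospholamban, had 0, 2 and 0 counts in the order MICFs, GMTMS-iCMs and library labelled GMTMM, so no ratio between libraries is given. In the 2 libraries with 0 counts the limit of 3 counts is 0.0756 FPKM in MICFs and 0.0931 FPKM in the library labelled GMTMM. Its 2 counts in GMTMS-iCMs were 0.0780 FPKM (0.00945 to 0.282), which is 0.0522% of the FPKM of Atp2a2 (0.00632% to 0.189%). Of the exon bases of Pln, 64.7% overlap genes on the opposite strand, Cep85l among them with 205, 235 and 358 counts. How reads over shared bases were assigned is not given in the sources used here, and reads of Pln there may not have been credited to it. Sln (ENSMUSG00000042045, chromosome 9 from 53850164 to 53854560), encoding sarcolipin, the inhibitor of the atrium and of skeletal muscle, had 22 counts in GMTMS-iCMs against 8 in the library labelled GMTMM, and MICFs had 0. With 3 counts put in place of the 0 in MICFs, the ratio came to 11.4 in GMTMS-iCMs. The library labelled GMTMM gave 3.28. These ratios leave out counting error in the 22 and 8 counts and are not lower bounds. GMTMS-iCMs held 3.46 times the level of the library labelled GMTMM (1.48 to 8.98), at 1.80 against 0.520 FPKM. Even so, Sln stood at only 1.20% of the FPKM of Atp2a2 in GMTMS-iCMs (0.752% to 1.82%) and at 0.620% in the library labelled GMTMM (0.268% to 1.22%). Of 6 further regulators of the pump, 5 were found in the tables. The small membrane proteins among them had few counts, with 1 count of Mrln in each library, none of Strit1, and 9, 0 and 1 of Erln. The other two were well above these. S100a1, encoding a calcium-binding protein that acts on the pump and the ryanodine receptor, had 718, 803 and 790 counts, and Hax1, whose product binds phospholamban, had 392, 523 and 503. Erln, S100a1 and Hax1 had the counts to be tested, and 0 of these 3 were called in any comparison by the rules given below, with the shares of all genes.

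Slc8a1 (ENSMUSG00000054640, chromosome 17 from 81388691 to 81649607) encodes the sodium-calcium exchanger of the surface membrane. MICFs had 597 counts of it, GMTMS-iCMs 711 but the library labelled GMTMM 293, or 14.1, 26.1 and 8.55 FPKM. Here too the transduced libraries lay on opposite sides of MICFs. GMTMS-iCMs held 1.85 times the FPKM of MICFs (1.65 to 2.06), whereas MICFs held 1.65 times that of the library labelled GMTMM (1.44 to 1.91). Between the transduced libraries the ratio was 3.05 (2.66 to 3.51). The order of Slc8a1 across the libraries was also that of the summed macrophage markers, at 7133, 13554 and 6382 FPKM, and the part of these cells was not tested. The related exchangers Slc8a2 and Slc8a3 had at most 11 counts in any library, with 5, 5 and 11 for the former and 4, 0 and 6 for the latter. The gene model of the tables gives Slc8a1 a length of 2934 bases, against 18807 exon bases in the GENCODE M21 annotation, so its FPKM is not ranked against other genes here. This length cancels in the ratios between libraries.

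**Figure D3:**
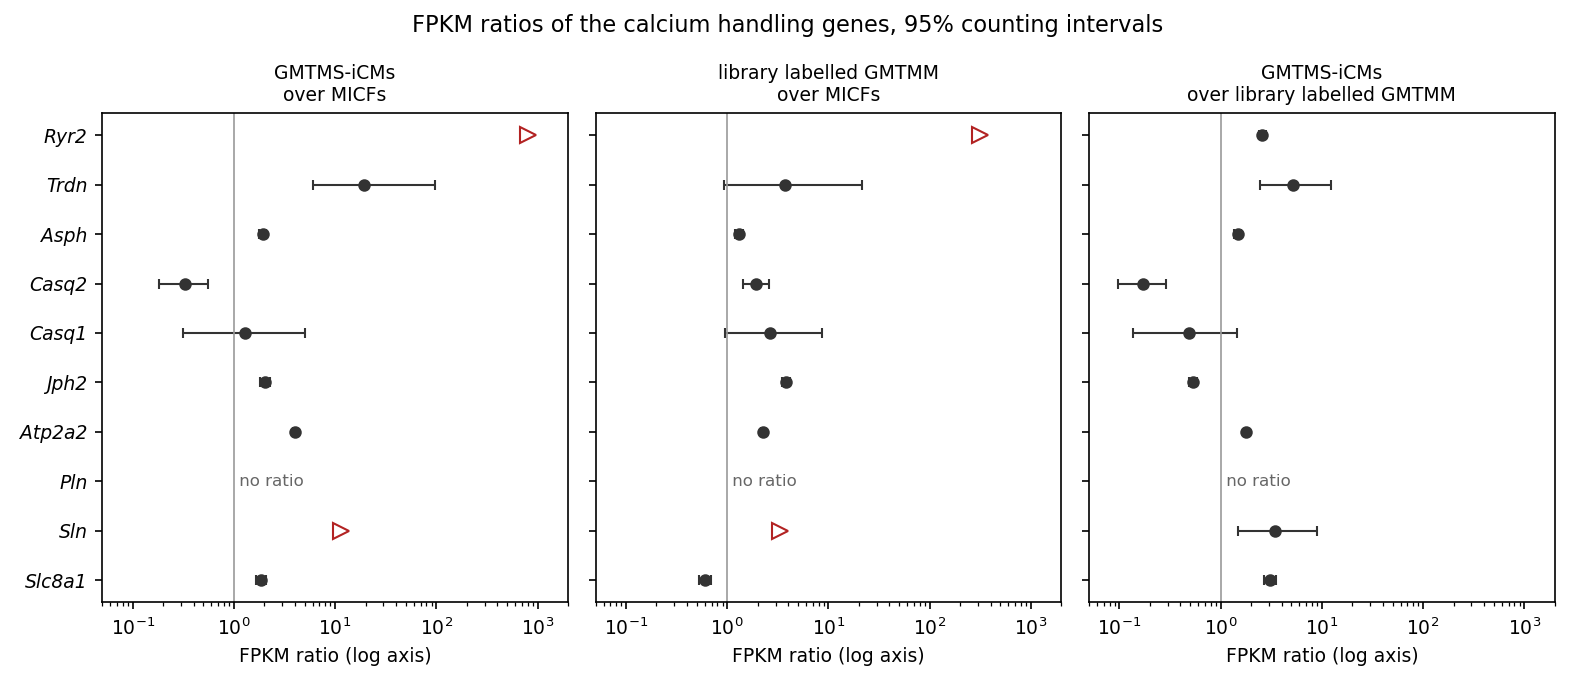
FPKM ratios (log axis) of the 10 genes for the 3 pairs of libraries, with Clopper-Pearson 95% intervals on the counts as bars. Open triangles are ratios to a limit of 3 counts and have no interval, and Pln has no ratio. Casq2 and Slc8a1 lie on opposite sides of 1 in the first and second panels, and the Ryr2 triangles are at 811 and 313.

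Ordered by FPKM with Slc8a1 left out, the genes in MICFs ran from Atp2a2 through Jph2, Asph, Casq2, Casq1 and Trdn to the 3 genes at 0 counts. In GMTMS-iCMs Ryr2 stood between Asph and Sln, and 63.4% of the 17027 genes with at least 10 counts over the libraries had a lower FPKM. Atp2a2 was above 98.1% of these genes and Casq2 above 26.3%. At the lower end of GMTMS-iCMs, neighbours were within counting error of each other, namely Casq2 and Trdn (ratio 1.57, 0.829 to 2.86), Trdn and Casq1 (1.54, 0.605 to 5.03), and Casq1 and Pln (3.54, 0.579 to 37.1). In the library labelled GMTMM Casq2 stood above Ryr2 (1.71, 1.40 to 2.07), and Casq1 and Sln could not be separated (1.10, 0.422 to 3.06). Ryr2 was above 42.9% of the genes there.

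To count how many of the genes differed, the FPKM were quantile-normalized over the 3 libraries and taken as log2 (value + 1), and a gene was called where the difference was over 1. This scale understates differences of genes below about 1 FPKM. In GMTMS-iCMs against MICFs, 3 of the 10 genes were called higher, Ryr2 (difference 2.81), Sln (1.57) and Atp2a2 (1.43), where 8.59% of all genes tested were called higher, and 0 of 10 were called lower, where 8.06% of all genes were. In the library labelled GMTMM against MICFs 2 of 10 were called higher, Ryr2 (1.69) and Jph2 (1.65), beside 6.08% of all genes, and 0 of 10 lower, beside 3.36%. Between the transduced libraries, Ryr2 (1.13) and Slc8a1 (1.43) were called higher in GMTMS-iCMs, beside 5.88% of all genes, and Casq2 (-1.47) was called lower, beside 8.44%. Of the 10 genes, 9 had the 10 counts asked of the genes tested, and Pln did not. With edgeR's TMM scaling of the counts, 5 genes were called higher and 1 lower in GMTMS-iCMs against MICFs, 6 and 0 for the library labelled GMTMM, and 5 and 1 between the transduced libraries. The shares of all genes called with TMM were not computed. The TMM numbers thus describe the 10 genes only and cannot be set beside the shares above.

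A second rule called a gene where the whole counting interval of its FPKM ratio lay beyond 2-fold. It uses no pseudocount, but genes with few counts have wide intervals and are harder to call. By this rule 4 of the 10 genes were higher in GMTMS-iCMs than in MICFs (Ryr2, Trdn, Atp2a2 and Sln), beside 10.3% of all genes tested, and 0 were lower, beside 10.1%. In the library labelled GMTMM 4 were higher than in MICFs (Ryr2, Jph2, Atp2a2 and Sln), beside 8.26%, and 0 were lower, beside 3.42%. Between the transduced libraries 3 were higher in GMTMS-iCMs (Ryr2, Trdn and Slc8a1), beside 5.29%, and Casq2 was lower, beside 10.6%. Scaled by the library totals, the ratio of Atp2a2 in the library labelled GMTMM to MICFs was 1.81 (1.73 to 1.89), below 2-fold. On that scale the ratio of Casq2 in GMTMS-iCMs to MICFs was 0.237 (0.132 to 0.404), wholly beyond 2-fold. The Sln call in the library labelled GMTMM rests on 8 counts and was not recomputed on that scale. The median log2 difference of the 10 genes was 0.69 for GMTMS-iCMs against MICFs, 0.46 for the library labelled GMTMM against MICFs and 0.49 between the transduced libraries, beside -0.05, -0.06 and 0.05 over all genes tested. The comparisons share their libraries and are not independent.

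**Figure D4:**
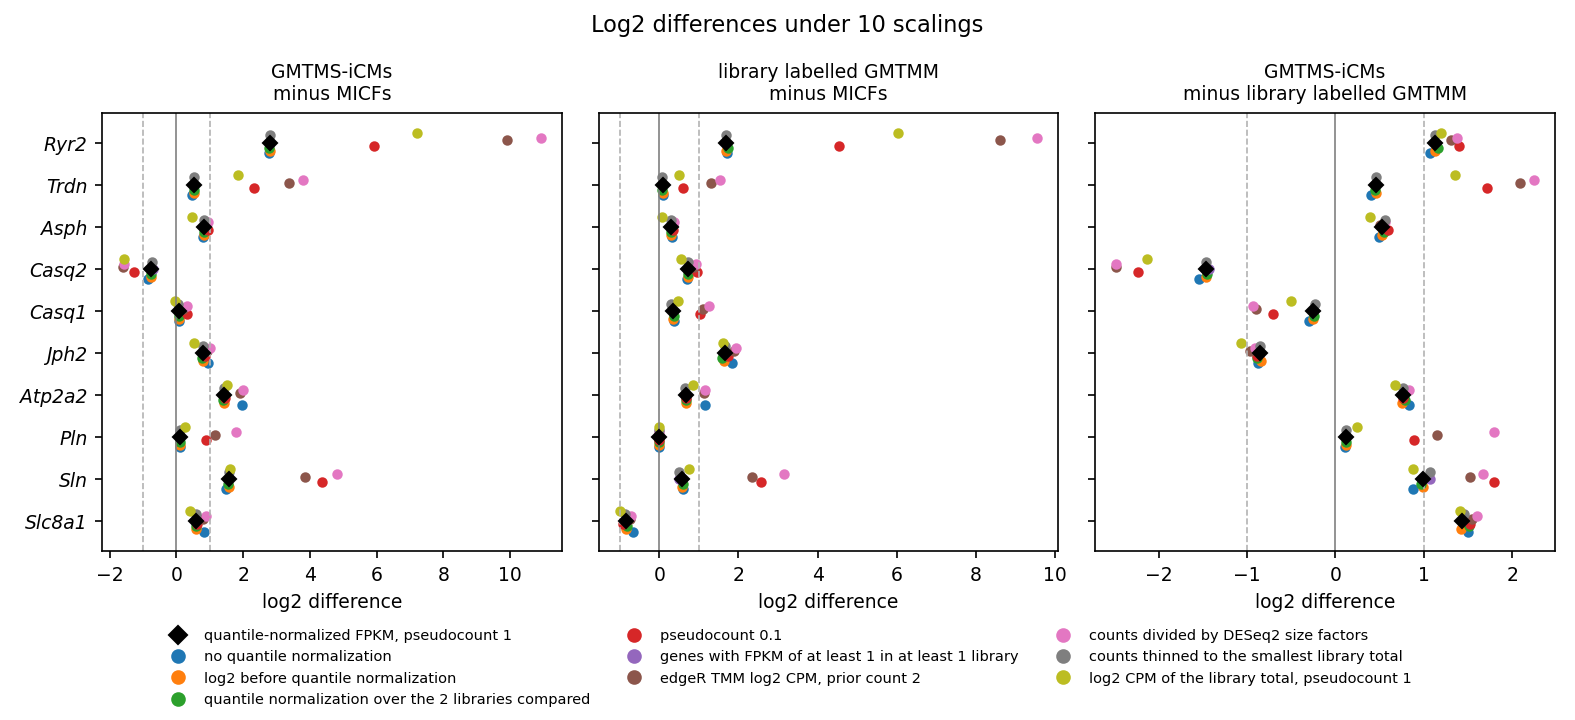
Log2 differences of the 10 genes for the 3 pairs of libraries under quantile-normalized FPKM (black diamonds) and up to 9 alternative scalings (coloured points), with dashed lines at a difference of 1 either way. Genes at or near 0 counts in MICFs spread most, as Ryr2 (2.81 at the diamond, 10.92 with size factors) and Trdn (0.54 and 3.78) do in the first panel, and Casq2 and Slc8a1 keep their sides in each panel.

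Beyond these genes, 78 of 79 further calcium handling genes were found in the tables and 72 had the counts to be tested. By the log2 rule, 6 of the 72 were called higher and 6 lower in GMTMS-iCMs against MICFs, 5 and 0 in the comparison of the library labelled GMTMM with MICFs, and 4 and 5 between the transduced libraries, where the shares of all genes are those given above. The 72 genes thus had shares of 8.33% higher and 8.33% lower in the first comparison, 6.94% and 0% in the second, and 5.56% and 6.94% in the third. By the interval rule, 13 were called higher and 5 lower in the first comparison (18.1% and 6.94%), 15 and 0 in the second (20.8% and 0%) and 4 and 10 in the third (5.56% and 13.9%). The rules thus differ in where these genes stand beside all genes, with more called higher than MICFs by the interval rule and not by the log2 rule. Srl, encoding the calcium-binding sarcalumenin of the reticulum lumen, had 38, 765 and 266 counts, with a ratio to MICFs of 31.2 in GMTMS-iCMs (22.5 to 44.4) and 8.62 in the library labelled GMTMM (6.12 to 12.5). Cmya5, encoding myospryn, which binds the junction and the sarcomere, had 1, 73 and 34 counts. The histidine-rich calcium-binding protein gene Hrc had 4, 19 and 19 counts and Jsrp1, another protein of the junction, had 1, 16 and 27.

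At the surface membrane, the calcium channel gene Cacna1h had 13, 90 and 41 counts and the channel subunit gene Cacnb2 had 8, 7 and 34, so the latter was higher than in MICFs in the library labelled GMTMM (ratio 5.24, 2.38 to 13.1) and within counting error of MICFs in GMTMS-iCMs (1.36, 0.418 to 4.28). The store-operated channel gene Orai2 had 377, 1315 and 923 counts, with a ratio to MICFs of 5.40 in GMTMS-iCMs (4.82 to 6.08) and 3.02 in the library labelled GMTMM (2.67 to 3.41). Of 6 store-operated genes, it was the 1 called in either comparison with MICFs, and both rules called it higher. Among all genes tested, GMTMS-iCMs had 8.59% called higher than MICFs by the log2 rule and 10.3% by the interval rule. For the library labelled GMTMM these shares were 6.08% and 8.26%. A list of 6 genes is too short to tell 1 call from these shares. Among the 9 calcium-binding chaperones and reticulocalbins of the endoplasmic reticulum, which all cells use, 3 were called lower in GMTMS-iCMs than in MICFs by both rules (Calu, Rcn1 and Rcn3). Of all genes tested, 8.06% were called lower there by the log2 rule and 10.1% by the interval rule. In the library labelled GMTMM against MICFs the log2 rule called 0 of 9, beside 6.08% of all genes higher and 3.36% lower. The interval rule called 2 higher, Rcn3 (ratio 2.22, 2.09 to 2.35) and Hspa5 (2.38, 2.32 to 2.44), beside 8.26% of all genes. Hspa5, encoding the chaperone BiP, was also called higher in GMTMS-iCMs by the interval rule (2.29, 2.23 to 2.35), beside 10.3% of all genes. Scaled by CPM these ratios lay below 2-fold, at 1.79 for Rcn3 and 1.93 for Hspa5 in the library labelled GMTMM and 1.65 for Hspa5 in GMTMS-iCMs. Rcn1 had 998, 153 and 1200 counts, and MICFs held 4.21 times the FPKM of GMTMS-iCMs (3.55 to 5.02). This order was again that of the summed fibroblast markers, whose part was not tested. Of the regulatory kinase and phosphatase genes, Ppp1r1a, whose product inhibits a phosphatase that acts on phospholamban, had 8, 36 and 16 counts. The calmodulin-dependent kinase gene Camk2b had 1, 13 and 19 counts, and Ppp1r3a, encoding a targeting subunit of a phosphatase, had 4, 5 and 14. Ank1, whose short muscle product sits in the reticulum membrane, had 30, 97 and 45.

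**Figure D5:**
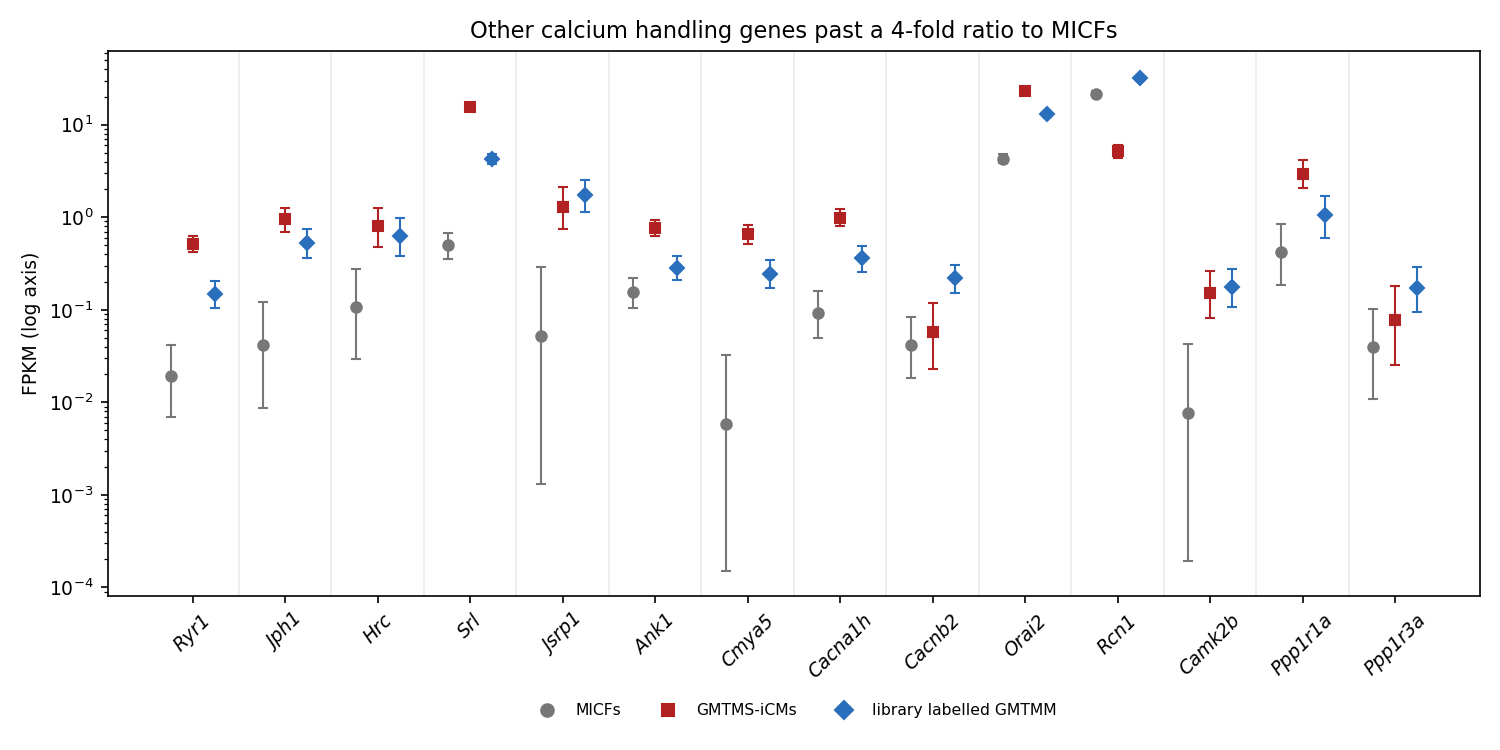
FPKM (log axis) of 14 further calcium handling genes whose ratio to MICFs was over 4 or under 0.25 in a transduced library with over 10 counts in the higher library, with Poisson 95% intervals as bars. Rcn1 is the gene lower in GMTMS-iCMs than in MICFs, while Srl and Cmya5 have their highest level in GMTMS-iCMs.

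Among 10744 genes with at least 100 counts in their highest library, the 5 nearest to Ryr2 by Euclidean distance over the 3 libraries on the log2 scale were Gm48786 (distance 0.219), Actn2 (0.237), Car14 (0.268), Itgb1bp2 (0.290) and Slc22a4 (0.303). Actn2 encodes the actinin of the sarcomeric Z-disc and had 0, 253 and 96 counts. Itgb1bp2, encoding the muscle chaperone melusin, had 3, 109 and 59, and the carbonic anhydrase gene Car14 had 4, 163 and 59. The pseudogene Gm48786 had 8, 212 and 92 counts, and whether its reads came from a gene of like sequence was not checked. With 3 libraries this likeness rests on 3 values per gene and is a description only.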

How the data were processed

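RNA of 3 libraries was sequenced as paired reads of 150 nucleotides. The submitters' processing notes name HISAT2 2.0.5 and build mm9, but of 54409 gene IDs of the tables found in GENCODE M21, 53462 had its GRCm38 coordinates, so coordinates are given on GRCm38. The counting tool and its use of strand are not given in the sources used here. The authors deposited a table of raw counts per gene and a table of FPKM values, whose library sizes (14389264, 9287868 and 11680913 for MICFs, GMTMS-iCMs and GMTMM) were scaled by size factors and differ from the totals. A ratio of deposited FPKM therefore differs from one of CPM.

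FPKM were quantile-normalized over the 3 libraries and taken as log2 (value + 1), as in the study's methods. Genes with at least 10 counts over the libraries were tested (17027 genes). Ratios carry Clopper-Pearson 95% intervals, levels Poisson 95% intervals, and 0 counts were set to a limit of 3 counts. The 10 genes and the gene lists were chosen with earlier results of these data known. Named further genes are the paralogs of the 10, list genes with a ratio to MICFs over 4 or under 0.25 and over 10 counts in the higher library, the 5 genes nearest to Ryr2, Sall4 and Mesp1. Calu, Rcn3, Hspa5, Mrln, Strit1, Erln, S100a1, Hax1 and Cep85l were named after their values were seen. The symbols Strit1 and Erln were read from rows under older names, and Arln was not matched. A gene of these lists is not reported here, and the counts over the lists leave it out. The steps were tested on simulated data. DESeq2 1.42.0 and edgeR 4.0.16 ran in R 4.3.3. Python 3.11.15 was used with SciPy 1.17.1, pandas 2.3.3, matplotlib 3.10.9 and numpy 2.4.6.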

Additional observations from a re-analysis of the deposited data

Results flagged for a closer look

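Casq2 and Slc8a1 stood on opposite sides of MICFs in the transduced libraries. For Casq2 the FPKM ratio to MICFs was 0.329 in GMTMS-iCMs but 1.91 in the library labelled GMTMM. For Slc8a1 it was 1.85 in GMTMS-iCMs but 0.605 in the library labelled GMTMM. Scaled by the library totals (CPM) the ratios kept their sides, at 0.237 and 1.54 for Casq2 and at 1.33 and 0.489 for Slc8a1. Each interval excludes 1, but there was 1 library per condition, both ratios of a gene share the MICFs library, and the difference was not tested across replicates.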

How the results depend on the processing

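Each difference was recomputed under 9 alternatives, or 8 for Trdn, Casq1 and Pln, which the limit of 1 FPKM leaves out, and no called gene changed its sign. Of 261 alternative values, 165 stayed within the counting interval of the reported difference and 96 moved, and 1 had another sign, Casq1 in GMTMS-iCMs against MICFs (-0.03 by CPM). Scaling by CPM, chosen after seeing the data, lowered the median difference of all genes by 0.34, 0.17 and 0.17 in the 3 comparisons. In the order GMTMS-iCMs against MICFs, library labelled GMTMM against MICFs and GMTMS-iCMs against library labelled GMTMM, the genes called higher numbered 3, 2 and 2. They numbered 5, 6 and 5 with TMM, 6, 6 and 5 with DESeq2 size factors, 4, 4 and 4 with a pseudocount of 0.1, and 1, 0 and 0 with a difference over 2. Genes called lower, 0, 0 and 1, became 1 in the first comparison with a pseudocount of 0.1, TMM, size factors or CPM (Casq2), 1 in the second with CPM (Slc8a1), and in the third 2 with CPM and 0 with a difference over 2. The shares of all genes called were not computed for these alternatives, so the numbers describe the genes examined only. The median differences 0.69, 0.46 and 0.49 became 0.92, 0.82 and 0.83 with a pseudocount of 0.1, 1.04, 1.12 and 0.97 with TMM, and 1.40, 1.21 and 1.10 with size factors. The first was 0.50 by CPM, and the others were 0.67 and 0.76 over genes with at least 1 FPKM in a library. Dividing the same counts by the exon length of GENCODE M21 put Slc8a1 at 2.72% of the FPKM of Atp2a2 in GMTMS-iCMs in place of 17.4%. In the library labelled GMTMM it gave 1.59% in place of 10.2%. Reads were not counted again on that annotation, so these shares show only the weight of the length and are not levels. No paired analysis was possible because no condition has replicates. Depth limits Trdn, Casq1, Pln and Sln most. The lack of replicates, the label of the third library and the mixture of cell types limit each comparison.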
